A study of Mus musculus with 6 samples.

Results

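The genes described are the pocket protein genes Rb1, Rbl1 and Rbl2, the MuvB core genes Lin9, Lin37, Lin52, Lin54 and Rbbp4, and the transcription factor genes Mybl2 (B-Myb) and Foxm1. Their members are all probe sets that the platform annotation assigns to 1 of these 10 genes, 25 probe sets of the 45037 tested. A further 2 probe sets are annotated to one of these genes together with other genes and were left aside. T cells had been isolated by negative selection from the spleens of single male C57BL/6 mice aged 10 weeks, 3 lacking miR-142 (KO) and 3 wild-type littermates (WT), and their amplified RNA was hybridized to Affymetrix 1-colour arrays. All mice share the strain background, and neither the deleted allele nor the stretch it removes was given in the sources used here. Values are log2 probe-set intensities as deposited, and 1 unit is a doubling.

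Pocket proteins bind E2F factors and hold cell cycle genes silent. In resting cells Rbl2 or Rbl1 joins E2F4 or E2F5, a DP partner and the MuvB core to form the DREAM complex, which represses genes of S phase and mitosis. When cells enter the cycle the core leaves the pocket protein, binds B-Myb and then recruits FoxM1, and this MMB and FoxM1 assembly activates genes of G2 and mitosis. Most T cells of an unchallenged spleen are quiescent, the state in which DREAM is known to act.

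The sequences shown to name the perturbation are the mature products of miR-142, the microRNA that the KO mice are described as lacking. They are the RefSeq entries of GRCm38.p6 on the plus strand, at chr11:87756867-87756887 for the 5p arm and chr11:87756903-87756925 for the 3p arm. Capitals mark the seed, bases 2 to 8.
mmu-miR-142a-5p: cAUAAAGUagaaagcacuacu
mmu-miR-142a-3p: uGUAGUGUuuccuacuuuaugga

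Promoter windows are shown for Rbl1 and Rbl2, the pocket proteins that can join DREAM, and a shorter stretch for Mybl2, the member with the largest difference. RefSeq promoters of GRCm38.p6 were matched by symbol for 7 of the 10 genes. Rb1, Lin9 and Foxm1 were not matched. Each window holds the 250 bases before the annotated start, written along the gene's strand. Capitals mark the E2F core letters TCCCGC or TCGCGC and the CHR letters TTTGAA or TTCGAA, each searched on both strands, where CHR is the element that Lin54 is known to bind. The letters of an E2F core cannot overlap those of a CHR, and both motifs come from general knowledge, taken after the windows had been seen. Rbl1 lies on the minus strand, at chr2:157204535-157204784, Rbl2 on the plus strand, at chr8:91069807-91070056, and the Mybl2 stretch on the plus strand, at chr2:163054605-163054634.
Rbl1: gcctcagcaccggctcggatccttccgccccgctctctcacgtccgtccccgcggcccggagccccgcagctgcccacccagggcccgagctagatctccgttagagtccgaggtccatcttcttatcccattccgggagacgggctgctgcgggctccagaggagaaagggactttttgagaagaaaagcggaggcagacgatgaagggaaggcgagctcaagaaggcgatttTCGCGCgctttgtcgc
Rbl2: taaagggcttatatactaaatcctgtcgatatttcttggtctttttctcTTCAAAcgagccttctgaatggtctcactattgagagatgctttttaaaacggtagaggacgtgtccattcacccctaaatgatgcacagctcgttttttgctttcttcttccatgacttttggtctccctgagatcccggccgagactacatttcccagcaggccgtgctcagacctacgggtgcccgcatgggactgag
Mybl2: gcggcgccgacgcacttgGCGGGAgatagg

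In the Rbl1 window the E2F core began 16 bases before the start, and in the Mybl2 window the nearer of its 2 cores began 12 bases before it. The Rbl2 window held no E2F core letters and a CHR match 201 bases before the start. The E2F core letters were in windows of 6 of the 7 matched genes, all but Rbl2. Counted by window, with a further window of Lin54 that lacked them, they were in 6 of 8. Among 32841 windows of the same length 21.4% held them. The E2F core letters stood in genes that differed in either direction, with Lin37 and Lin52 among them. The CHR letters were in windows of 3 genes, Rbl2, Lin37 and Lin54, or 3 of the 8 windows, and in 17.1% of all windows. These matches are letters in a window and describe no binding.

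The arrays as a whole bear on every value given for the members. The transcript listed as Mir142 was at 7.93, 8.13 and 7.67 in WT and at 5.97, 5.88 and 5.90 in KO, and whether its probe set lies in the deleted part is not known here. Correlations across probe sets were 0.994 to 0.996 within WT and 0.986 to 0.995 within KO. All 10 measured T cell markers fell in KO, with list means of 12.17 to 12.19 in WT and 9.41 to 10.79 in KO, whereas all 9 erythroid markers, 10 of 11 neutrophil markers, 8 of 10 markers of eosinophils, mast cells and basophils, 6 of 7 monocyte and macrophage markers, 5 of 6 progenitor markers and 1 of 5 B cell markers rose. In such bulk RNA a changed share of a cell type and a changed amount of RNA per cell cannot be told apart. Signs of RNA quality moved with genotype. The 18S control was at 9.47 to 9.66 in WT and lower in every KO array, at 7.86 in KO replicate 1 and at 9.15 and 9.19 in the others, and the Actb controls read higher at the 3′ than at the 5′ end by 0.16 to 0.23 in WT and 0.32 to 0.40 in KO. The part of these in the results was not tested. The bacterial hybridization controls were at 10.10 to 10.30 in WT and 9.80 to 9.91 in KO. Centring the arrays on those controls moved the median difference of all probe sets from -0.08 to 0.29.

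Of the 25 member probe sets 9 rose and 4 fell, where rose and fell stand for an adjusted p below 0.05 in limma. Over all probe sets 13.9% rose, 15.5% fell and 29.4% were called in either direction. At the brightest probe set of each gene, Mybl2, Lin9, Lin54, Rb1 and Foxm1 rose, Rbl2, Lin52 and Lin37 fell, and Rbl1 and Rbbp4 did not pass the test. Among all 18193 genes taken in that way, 18.6% rose, 18.6% fell and 37.2% were called. The KO values did not overlap the WT values at 18 member probe sets, 12 with KO above and 6 with KO below. Among all probe sets 45.9% did not overlap, and 18.5% had KO above. The median absolute difference was 0.35 over the member probe sets and 0.21 over all probe sets. Both Mybl2 probe sets and 1 of Foxm1, 3 in all or 12% of the members, differed at least 2-fold, against 9.81% of all probe sets.

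Several of these calls were lost with fewer arrays. Leaving out 1 array at a time kept 7 of the 13 calls in every fit. These were both probe sets of Mybl2, 2 of Foxm1 and 1 each of Lin9, Rbl1 and Rbl2. The member genes that rose numbered 5 over all arrays. There were 4 on leaving out KO replicate 3 and 2 on leaving out WT replicate 2. Leaving out replicate 1 or 3 of WT or replicate 1 or 2 of KO gave 3. Member genes that fell numbered 1 without WT replicate 2 and 2 in each of the other fits, in place of 3. Member probe sets that fell numbered 4 over all arrays. There were 1 without WT replicate 2, 2 without WT replicate 1 or KO replicate 1, and 3 in the other fits. With the arrays centred on the hybridization controls 14 member probe sets rose and 0 fell by limma, so that none of the 4 falls held, and 1, Rbl2 1425981_a_at, was lower at an unadjusted p under 0.05.

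**Figure D1:**
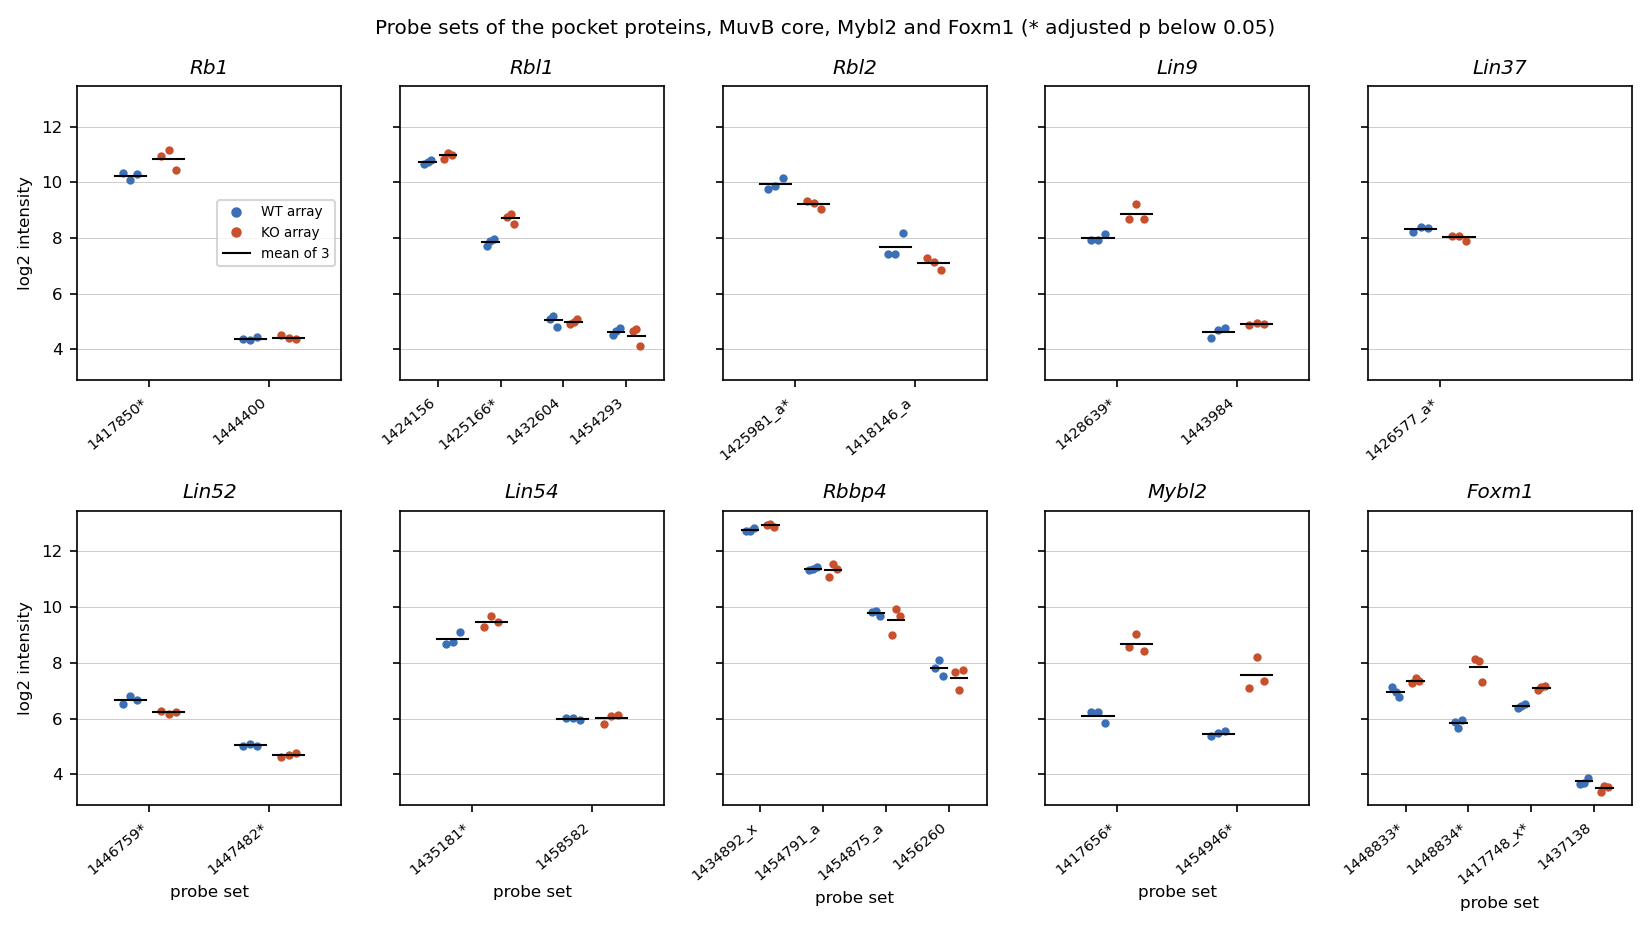
Log2 intensity (vertical axis) of the 25 member probe sets (horizontal axis, suffix _at left off) in each of 3 WT arrays (blue) and 3 KO arrays (red), with bars at the mean of 3 and a star at an adjusted p below 0.05. The KO arrays lie well above the WT arrays for both Mybl2 probe sets and for Foxm1 1448834_at, and below them for both Rbl2 and both Lin52 probe sets.

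Mybl2, which encodes the B-Myb factor that takes the place of the pocket protein on MuvB, had the largest difference of the 10 genes. Its probe set 1417656_at was at 6.24, 6.22 and 5.83 in the WT arrays and at 8.56, 9.04 and 8.43 in the KO arrays. Every KO array was above every WT array by more than 2 units, with KO replicate 2 the highest. The means were 6.10 ± 0.23 (SD, n = 3) in WT and 8.68 ± 0.32 in KO, a rise of 5.99-fold (limma adjusted p = 0.000105). Its other probe set, 1454946_at, was at 5.36, 5.48 and 5.55 in WT and at 7.10, 8.21 and 7.35 in KO. Here too KO replicate 2 was the highest array, and the groups did not overlap. That rise was 4.25-fold (log2 difference 2.09 ± 0.26, SE; limma adjusted p = 0.00106). Across the fits that left out 1 array the differences ranged from 2.40 to 2.71 for the first probe set and from 1.76 to 2.31 for the second.

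Foxm1, the forkhead factor of G2 and mitosis genes, rose at 3 of its 4 probe sets, by amounts that differed widely. At 1448834_at the WT arrays read 5.87, 5.67 and 5.93 and the KO arrays 8.13, 8.05 and 7.32. All KO arrays were higher, KO replicate 3 by the least, and the rise was 4.02-fold (log2 difference 2.01 ± 0.21, SE; limma adjusted p = 0.00049). At 1417748_x_at, whose suffix marks probes that can cross-hybridise, the WT arrays read 6.37, 6.43 and 6.51 and the KO arrays 7.04, 7.12 and 7.17. These groups were tight and apart, and the rise was 1.59-fold (limma adjusted p = 0.00109). The brightest probe set, 1448833_at, read 7.14, 6.95 and 6.76 in WT and 7.27, 7.45 and 7.34 in KO. WT replicate 1 lay close to KO replicate 1, and the rise was 1.33-fold (limma adjusted p = 0.0373). It was called without WT replicate 1, at 0.50, but not without WT replicate 2 (0.41) or 3 (0.31) or KO replicate 1 (0.45), 2 (0.36) or 3 (0.42). The dim 1437138_at, at 3.65 to 3.88 in WT and 3.36 to 3.58 in KO, differed by -0.24 ± 0.10 (limma adjusted p = 0.125). The probe sets of Foxm1 thus disagree in size and, for the dim one, in sign, although it too was positive, at 0.12 and not called, with hybridization control centring. Which of them reads the transcript best was not tested.

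Rb1, the founding pocket protein and the main partner of the activating E2Fs, was at 10.33, 10.08 and 10.31 in WT and at 10.95, 11.15 and 10.45 in KO at 1417850_at. KO replicate 3 lay only just above the highest WT array. The means were 10.24 ± 0.14 (SD, n = 3) and 10.85 ± 0.36, a rise of 1.52-fold (limma adjusted p = 0.0405). The call held without KO replicate 3 (0.81) but not without WT replicate 1, 2 or 3 (0.65, 0.53 and 0.64) or KO replicate 1 or 2 (0.56 and 0.46). Its other probe set, 1444400_at, was dim at 4.33 to 4.50 over the 6 arrays, and the groups overlapped (log2 difference 0.05 ± 0.08, SE; limma adjusted p = 0.697).

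Rbl1, a pocket protein that E2F factors are known to induce as cells enter the cycle, gave different answers at its probe sets. At 1425166_at the arrays read 7.70, 7.88 and 7.97 in WT and 8.77, 8.85 and 8.49 in KO. The groups were well apart, and the rise was 1.81-fold (log2 difference 0.85 ± 0.12, SE; limma adjusted p = 0.00201). At the brightest, 1424156_at, they read 10.64, 10.71 and 10.79 in WT and 10.84, 11.07 and 10.97 in KO. All KO arrays were again the higher, but by only 1.19-fold (limma adjusted p = 0.0939). The 2 dim probe sets, 1432604_at and 1454293_at, lay between 4.10 and 5.19 in all arrays, overlapped, and differed by -0.04 and -0.15.

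Rbl2, the pocket protein of DREAM in resting cells, was lower in KO. At 1425981_a_at the arrays read 9.77, 9.86 and 10.15 in WT and 9.34, 9.27 and 9.05 in KO. No KO array reached the lowest WT array, and the fall was 1.64-fold (log2 difference -0.71 ± 0.13, SE; limma adjusted p = 0.0058). At 1418146_a_at they read 7.41, 7.42 and 8.19 in WT and 7.28, 7.13 and 6.84 in KO. WT replicate 3 stood above the other WT arrays, and the difference of -0.60 ± 0.23 missed the threshold (limma adjusted p = 0.0918). With hybridization control centring the first probe set differed by -0.34 and was not called (limma adjusted p = 0.0804).

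Within single arrays Rbl1 and Rbl2 stood further apart in KO, a contrast that no centring of arrays can alter. Rbl1 minus Rbl2, each at its brightest probe set, was 0.87, 0.85 and 0.63 in WT and 1.50, 1.80 and 1.92 in KO. The mean of this within-array contrast was higher by 0.96 in KO. Mybl2 minus Rbl2 was higher by 3.29 in KO and Foxm1 minus Rbl2 by 1.12. In each of the 3 contrasts all KO arrays were above all WT arrays, for which the exact two-sided permutation test gives p = 0.1 each, the smallest that 3 against 3 arrays allow, and 0.1 after Benjamini-Hochberg adjustment over the 3. This test therefore cannot reach p below 0.05 for them. They show unequal change between the probe sets and not which of a pair moved.

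Among the MuvB core genes 2 rose, 2 fell and 1 was not called at the brightest probe sets. Lin9, the scaffold of the core, was at 7.93, 7.91 and 8.15 in WT and at 8.69, 9.22 and 8.68 in KO at 1428639_at. KO replicate 2 was the highest, and the rise was 1.82-fold (log2 difference 0.87 ± 0.16, SE; limma adjusted p = 0.00613). Its dim probe set 1443984_at read 4.42, 4.70 and 4.78 in WT and 4.86, 4.93 and 4.93 in KO, apart but short of the threshold (limma adjusted p = 0.113). Lin54, the DNA-binding subunit, was at 8.67, 8.75 and 9.10 in WT and at 9.30, 9.67 and 9.48 in KO at 1435181_at. The groups did not overlap, and the rise was 1.56-fold (limma adjusted p = 0.0142). That call was lost without WT replicate 1 (0.56) or WT replicate 2 (0.60). At 1458582_at Lin54 was at 5.96 to 6.04 in WT and 5.81 to 6.13 in KO, with no separation.

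Lin52, the small subunit that links MuvB to the pocket protein or to B-Myb, was lower at both of its own probe sets. The brighter 1434161_at, annotated to Lin52 together with Gm7020, had overlapping groups and was not called (log2 difference -0.27 ± 0.14, SE; limma adjusted p = 0.214). At 1446759_at the arrays read 6.52, 6.81 and 6.66 in WT and 6.26, 6.16 and 6.24 in KO, a fall of 1.36-fold (limma adjusted p = 0.0139). At 1447482_at they read 5.03, 5.09 and 5.02 in WT and 4.64, 4.68 and 4.78 in KO, a fall of 1.27-fold (limma adjusted p = 0.0172). Neither pair of groups overlapped, but the second probe set was dim. The first call was lost without WT replicate 2 (-0.37) and the second without WT replicate 1 (-0.36), WT replicate 2 (-0.33) or KO replicate 1 (-0.32). Lin37, the subunit known to be needed for repression by DREAM, read 8.22, 8.38 and 8.37 in WT and 8.07, 8.08 and 7.91 in KO at its single probe set. It fell by 1.24-fold (limma adjusted p = 0.0426), a call lost on leaving out any one array, WT replicates 1, 2 and 3 (-0.36, -0.28 and -0.29) or KO replicates 1, 2 and 3 (-0.34, -0.34 and -0.26). Centred on the hybridization controls, Lin37 differed by 0.055 and the Lin52 probe sets by -0.076 and 0.017, none of them called.

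Rbbp4, a histone-binding protein that also serves in other chromatin complexes, passed the test at none of its 4 probe sets by limma, and 0 of them had an unadjusted p under 0.05. The brightest, 1434892_x_at, read 12.72, 12.75 and 12.84 in WT and 12.96, 12.97 and 12.87 in KO, a difference of 0.17 ± 0.08 (SE; limma adjusted p = 0.18). KO was above WT there in every array, by little. The other 3 probe sets had overlapping groups and differences of -0.05, -0.25 and -0.34. KO replicate 1 was the lowest array at 1454875_a_at, 8.99 against 9.92 and 9.69 in the other KO arrays. Under hybridization control centring all 4 differences were positive and the brightest was called.

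**Figure D2:**
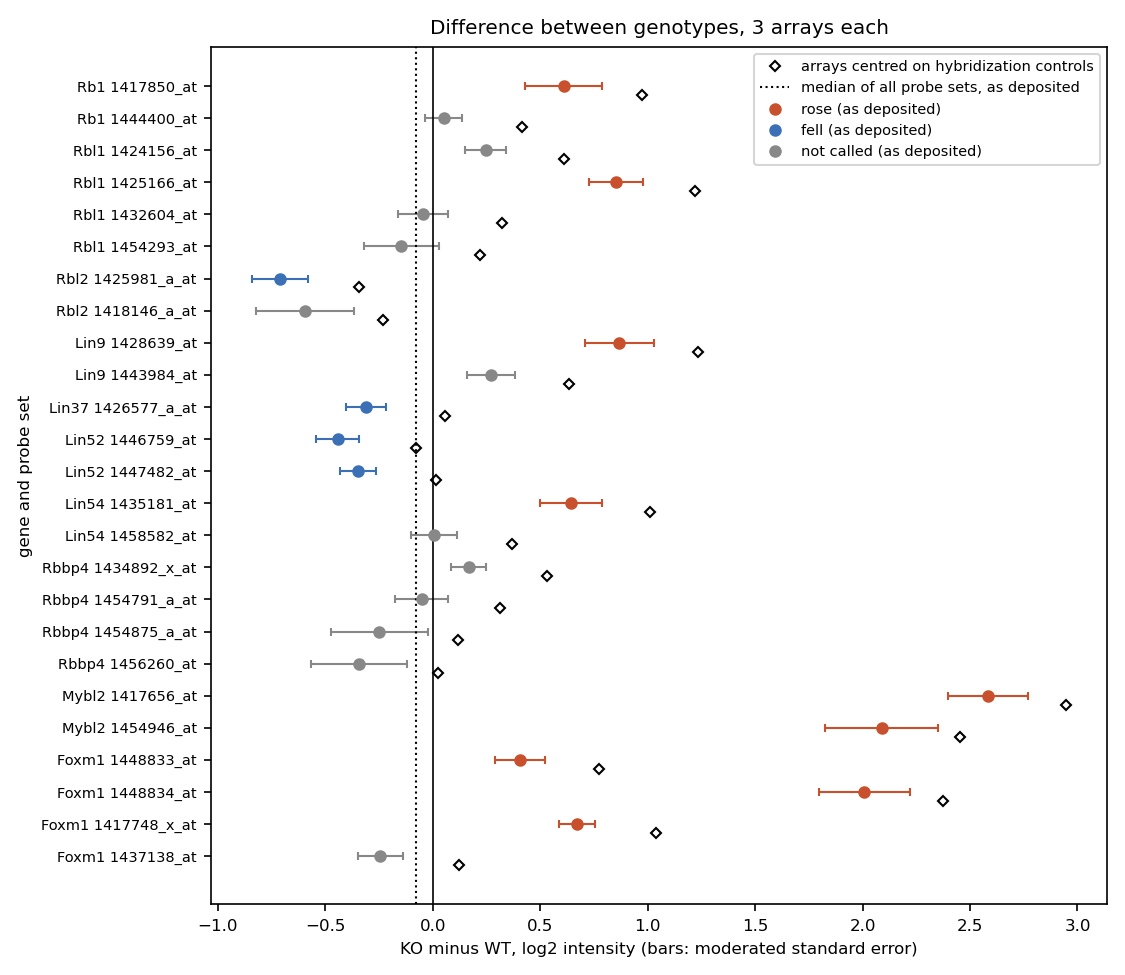
KO minus WT difference in log2 intensity (horizontal axis) of each member probe set (vertical axis), with bars for the moderated standard error and open diamonds for the same difference after arrays were centred on the hybridization controls. Mybl2 stands apart at 2.58 and 2.09 with Foxm1 1448834_at at 2.01, and all diamonds lie to the right of their points by the same amount, so that those of Lin37 and Lin52 come to lie near 0.

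Genes that work with these members were described from a list of partners and regulators, of which all 35 were measured. At their brightest probe sets 22 rose, 5 fell and 8 did not pass, with a median difference of 1.02 against -0.06 over all genes. Among all genes 18.6% rose and 18.6% fell. E2f7 and E2f8, atypical E2F repressors, rose by 3.30 ± 0.23 (SE) and 2.93 ± 0.13 (limma adjusted p = 9.6e-05 and 2.1e-05). Ccne2 and Ccnd1, cyclins of the kinases that release pocket proteins, rose by 3.24 ± 0.20 and 2.76 ± 0.22 (limma adjusted p = 5.8e-05 and 0.00016). The 5 that fell were Lats2 by 1.37, Ccnd2 by 1.14, Cdkn2d by 0.85, E2f5 by 0.83 and Dyrk1a by 0.41. Dyrk1a is the kinase known to phosphorylate Lin52 and favour DREAM assembly, Lats2 is a kinase upstream of it, E2f5 is a repressive E2F of the complex, Ccnd2 is a D cyclin and Cdkn2d is an inhibitor of the D cyclin kinases. Under hybridization control centring Dyrk1a and E2f5 were no longer called (-0.041 and -0.46), and Dyrk1a was also lost without both WT replicate 1 and KO replicate 2 (-0.34). E2f4, the usual E2F of DREAM and named after its values were seen, had a WT mean of 7.15 ± 0.17 (SD, n = 3) and a KO mean of 7.17 ± 0.11 (limma adjusted p = 0.929). With hybridization control centring E2f4 was higher by 0.38 and was called.

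Genes listed as ones that DREAM is known to repress were higher nearly throughout. The lists of target genes and of partners and regulators were written with earlier results of these data known. Their counts beside those of all genes are therefore a description and no independent test. The part of other cell types in these rises was not tested. Of the 29 measured genes of G1/S and DNA replication 28 rose and 0 fell by limma, with a median of 1.47. Over all genes 18.6% rose and 18.6% fell, with a median of -0.06. Cdc6, which loads the replicative helicase, rose by 2.67 ± 0.18 (SE), and Tk1, the thymidine kinase, by 2.62 ± 0.16. Uhrf1, of maintenance methylation, rose by 2.55 ± 0.13, and Brca1, of DNA repair, by 2.51 ± 0.14 (limma adjusted p from 3.4e-05 to 8.7e-05 for these 4 genes). The gene that did not pass, named after its values were seen, was Orc1, of the origin recognition complex, which differed by 0.053. No gene of this list had a negative difference in the values as deposited, so none fell at an unadjusted p under 0.05, but Orc1 turned to -0.033 with repeated quantile normalization and to -0.0051 without WT replicate 2.

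Of the 34 measured genes of G2 and mitosis, the class that MMB and FoxM1 activate, 32 rose and 0 fell by limma. Their median was 2.28, with no negative difference. The share of all genes that rose was 18.6%, and the median of all genes was -0.06. Anln, a cytokinesis scaffold, rose by 3.54 ± 0.15 (SE), and Aurkb, a mitotic kinase, by 2.88 ± 0.17. Cenpf, a kinetochore protein, rose by 2.76 ± 0.20, and Ect2, an exchange factor of cytokinesis, by 2.73 ± 0.19 (limma adjusted p from 1.9e-05 to 0.0001 for these 4 genes). Troap and Cdc25b, named after their values were seen, did not pass at 0.33 each. Troap was called without WT replicate 1 (0.51) and Cdc25b without KO replicate 3 (0.64). In every fit that left out 1 array, 27 or 28 genes of the G1/S list and 31 to 33 of the G2/M list rose. The medians of the target lists exceeded the differences of Rb1, Rbl1, Lin9 and Lin54. Mybl2 alone of the brightest member probe sets lay above both.

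**Figure D3:**
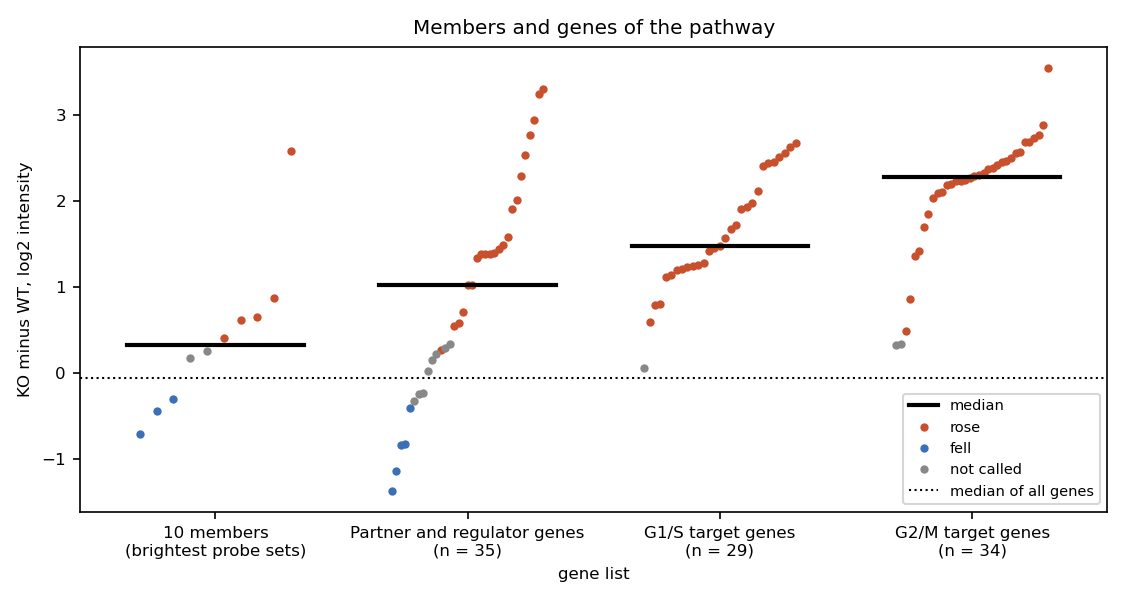
KO minus WT difference in log2 intensity (vertical axis) of the 10 members and of 35 partner and regulator genes, 29 G1/S and 34 G2/M target genes (horizontal axis), each gene a point at its brightest probe set, coloured by call, with the list median as a line. The members spread from -0.71 to 2.58 on both sides of 0, while all G1/S and G2/M genes lie above 0 in the values as deposited (Orc1, the lowest, is at -0.033 with repeated quantile normalization).

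The genes of most like pattern were found by the root mean square difference over the 6 arrays, after each gene was centred on its WT mean. For Mybl2 they were Psrc1 at 0.13, Smim5 at 0.15, and Gfi1b, Pde5a and Ccnb2 at 0.16, in log2 units. For Rbl1 at its brightest probe set they were Ube2k, Mphosph10, Eif2b5, Pop4 and Sf3a3, at 0.020 to 0.024. For Foxm1 at its brightest probe set they were Fam124a, Ankrd9, Tubgcp3, Tle2 and Rcor1, at 0.061 to 0.076. The distance is not scaled, so it favours genes with a difference of like size. Those near Rbl1 differed by 0.23 to 0.27 and those near Foxm1 by 0.32 to 0.47. The Rbl1 probe set was not called, and the Foxm1 call was kept in 1 of the 6 fits that left out 1 array. The arrays are the same for all genes, so the likeness in each list includes whatever the 3 KO arrays share.

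The KO arrays differed among themselves, and the members did not all follow one order. At the brightest probe sets KO replicate 2 was the highest KO array for all member genes but Rbl2 and Lin52. Lin37, which fell, was among these. The margin over KO replicate 1 was small for Lin37 (8.08 against 8.07) and Rbbp4 (12.97 against 12.96). KO replicate 2 was also the highest KO array at Mybl2 1454946_at and Rbl1 1425166_at. At the other called Foxm1 probe sets the highest was KO replicate 1 (1448834_at) or KO replicate 3 (1417748_x_at). In KO replicate 2 the G1/S and G2/M lists averaged 11.12 and 10.68, against 10.74 and 10.31 in KO replicate 1 and 10.71 and 10.18 in KO replicate 3. It also had the highest mean of the erythroid markers, 11.16 against 10.52 and 10.07, and the lowest of the T cell markers, 9.41 against 10.63 and 10.79. The mean of the neutrophil markers was instead highest in KO replicate 1, 13.29 against 10.65 and 11.34, and was 7.41, 6.23 and 6.34 in WT replicates 1, 2 and 3. In KO replicates 1, 2 and 3 Ltf was far apart (13.17, 8.02 and 9.70) and Elane close (12.96, 12.57 and 12.72). The mean of the B cell markers was also highest in KO replicate 2, 8.22 against 7.45 and 7.04, and was 6.34 to 6.91 in WT. Cd79a, Cd79b and Blnk were highest there, but Ms4a1 was lowest, at 5.89 against 8.80 and 7.71 in the other KO arrays. Pax5, at 5.65 in KO replicate 2, lay within its WT values of 5.53 to 5.73. Monocyte and macrophage markers were at 9.71, 8.96 and 9.14 in KO replicates 1, 2 and 3 and at 6.16 to 6.58 in WT. Markers of eosinophils, mast cells and basophils were at 9.46, 9.04 and 9.14, and progenitor markers at 9.79, 9.48 and 9.67, in KO replicates 1, 2 and 3. In the WT arrays the erythroid mean was 7.37 to 7.79, the progenitor mean 6.89 to 7.01, and the mean of eosinophil, mast cell and basophil markers 5.37 to 5.47. The part of these other cell types in the differences of Mybl2, Foxm1 and the rest was not tested. Without KO replicate 2 the Mybl2 differences were 2.40 and 1.76, that of Lin9 was 0.69 and that of Foxm1 1448834_at was 1.90.

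**Figure D4:**
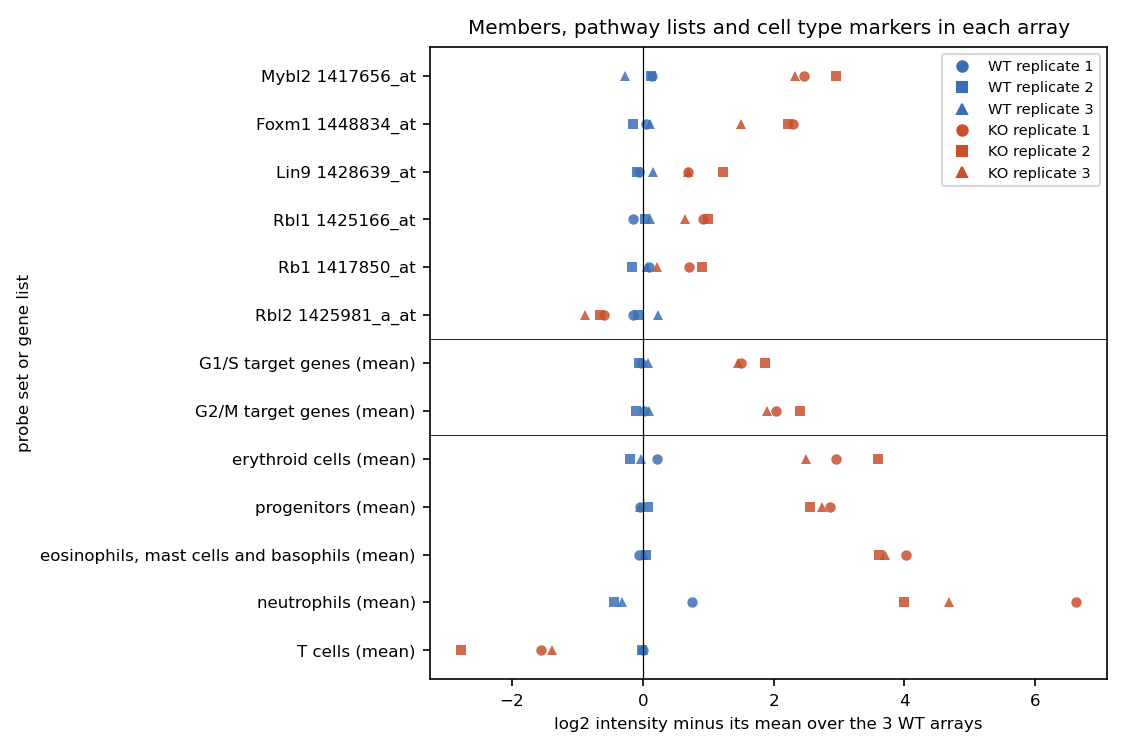
Log2 intensity minus its mean over the 3 WT arrays (horizontal axis) for 6 member probe sets, the means of the G1/S and G2/M target lists and the means of 5 cell type marker lists (vertical axis), 1 symbol for each array. KO replicate 2 (red squares) is the highest array for Mybl2, Lin9, Rbl1, Rb1, both target lists and the erythroid markers. It is the lowest for the T cell markers.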

How the data were processed

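The authors deposited log2 probe-set intensities, made with RMA (version not given) per the submitters' processing notes. No detection calls were used. Values were used as deposited. Of 45101 probe sets 64 array controls were left out and 45037 were tested. The platform annotation gives 1 gene for 34945, several for 932 and does not list 9160. All 6 columns were used.

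Genotypes were compared in limma 3.58.1 (R 4.3.3; lmFit, then eBayes with no intensity trend), and its two-sided p-values were adjusted by Benjamini-Hochberg over all 45037 probe sets. The fit was tested on simulated data. Members and lists were chosen with earlier results of these data known, and the lists were written from general knowledge. A gene is taken at its probe set with the highest mean. Named genes were all member probe sets, the 4 genes past the threshold with the largest absolute differences in each pathway list, all members in a direction holding 5 or fewer, and the 5 nearest patterns of Rbl1, Mybl2 and Foxm1. Exceptions are stated.

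Replicates are separate mice per the labels. The labels do not say whether the replicate numbers pair them. Deviations from group means of same-numbered arrays correlated at 0.101, -0.236 and -0.204, and those of different-numbered arrays at -0.16 to 0.267. The deviations of 3 arrays from their own mean are tied to each other, so these correlations cannot decide whether the numbers pair mice. The 3 arrays of each genotype limit the precision.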

Additional observations from a re-analysis of the deposited data

How the results depend on the processing

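With arrays centred on the 18 hybridization controls, 17309 probe sets rose and 2337 fell, 14 member probe sets rose and 0 fell by limma (1, of Rbl2, at an unadjusted p under 0.05), 0 member genes fell and 3 partner and regulator genes fell; Lin37 turned to 0.055 and Lin52 1447482_at to 0.017, neither called by limma. The labels do not say that the replicate numbers pair the mice. With the replicate block 1 member probe set fell, and 3 member genes rose and 1 fell. Without both WT replicate 1 and KO replicate 2, 2 member probe sets fell and 3 member genes rose. With all probe sets of a gene averaged, 3 member genes rose. Leaving out 1 array at a time gave 6 to 8 member probe sets that rose and 1 to 3 that fell, and 2 to 4 member genes that rose and 1 to 2 that fell. Of 13 member calls 6 held under all alternatives run: both of Mybl2, Foxm1 1448834_at and 1417748_x_at, Lin9 1428639_at and Rbl1 1425166_at. Over all alternatives 27 to 29 G1/S and 31 to 34 G2/M target genes rose, and the within-array contrasts kept their signs in all fits run for them. The 3 arrays per genotype and dim probe sets limit small differences.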

Other observations

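A probe set annotated to Foxm1 together with Pebp1 and Tex52, 1453107_s_at, was at 5.42, 5.16 and 4.75 in WT and at 7.84, 8.07 and 7.41 in KO, a log2 difference of 2.66 ± 0.22 (SE, n = 3 per group; limma adjusted p = 0.000164). Which of the 3 genes it reads cannot be told from the annotation. A probe set annotated to Lin52 together with Gm7020, 1434161_at, was at 8.46, 8.57 and 8.95 in WT and at 8.38, 8.53 and 8.27 in KO, with overlapping groups and a difference of -0.27 ± 0.14 (limma adjusted p = 0.214).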
